A study of Mus musculus with 69 samples.

Results

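The comparison described here is of embryoid bodies at day 8 of differentiation under GSK343, an inhibitor of the histone methyltransferase EZH2, with embryoid bodies of the same day under the vehicle, dimethyl sulfoxide (DMSO). Its members are 4 RNA-seq libraries of the 69 samples of the series, 2 under GSK343 and 2 under DMSO, chosen by their labels. All come from CJ7, an established line of mouse embryonic stem (ES) cells kept with LIF on a layer of feeder cells, and all embryoid bodies, aggregates of differentiating cells, were started as hanging drops in medium with serum and without LIF. GSK343 was present at 4 µM from 3 days before differentiation until collection, and DMSO was given to its controls in an equal volume. The table that holds them also has 2 libraries each of GSK343 and DMSO cultures as ES cells (day 0) and as embryoid bodies at day 4. A separate table has 3 EZH2 mutant and 3 wild-type libraries of day 8, for which the labels name no allele. The labels do not say that replicates were separate cultures, so p-values here measure only the spread between these libraries, which may be technical.

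EZH2 is the main catalytic subunit of Polycomb repressive complex 2 (PRC2), which places trimethylation on lysine 27 of histone H3 (H3K27me3), a mark of repressed genes. In ES cells the mark covers many genes of later lineages, and embryoid bodies leave pluripotency through a stage resembling the epiblast before they form mesoderm, endoderm, blood islands and beating cardiac muscle. PRC2 is needed both to hold lineage genes silent and to shut off stem cell genes as cells differentiate.

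Values are RPKM, a read rate scaled to gene length and library size, as the authors deposited them. A fold change is the difference of log2(RPKM + 1) of GSK343 over DMSO with its standard error (SE), a scale that understates the change of weakly expressed genes. The test was limma's moderated test over 14016 genes, with a Benjamini-Hochberg adjusted p under 0.05 as the threshold. Library depth, as whole reads computed back from RPKM, was 16.4 to 22.0 M (mega-reads) at day 8, of which 6.38% to 8.13% fell on Rn45s, a ribosomal RNA gene. Across genes the log2 values correlated at 0.971 between the GSK343 libraries and at 0.988 between the DMSO libraries, and at 0.902 to 0.920 between libraries of different groups. Ezh2 transcript, which an inhibitor of the enzyme need not alter, was 51.0 and 46.7 RPKM in GSK343 libraries 1 and 2, against 46.7 and 37.4 RPKM in DMSO libraries 1 and 2 (0.22, SE 0.23, adjusted p = 0.510).

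At day 8, 2193 genes were higher under GSK343, 15.6% of those tested, and 2241 were lower, 16% of those tested, so that 31.6% changed in either direction. Among the genes that rose, 888 changed by at least 1 on the log2 scale and 61 by at least 3. Among the genes that fell, 901 changed by at least 1 and 80 by at least 3. The median of all genes was 0.00. The counts rested in part on the DMSO libraries. They were 1409 higher and 1648 lower without DMSO library 1, 1331 and 1401 without DMSO library 2, and 1354 and 1350 when only the 4 day 8 libraries were fitted. In such fits a lone library is assumed to vary like the other groups.

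Most pluripotency and germline genes tested rose under GSK343, and many genes of blood, vessels, heart, mesenchyme and visceral endoderm fell. Bulk RNA cannot tell fewer cells of a type from less RNA of the type in each cell. The promoters of 3 genes that stand for both directions are shown first, as the 250 bases before the RefSeq start (GRCm38.p6), because they belong to genes that the text returns to. Nanog, a core pluripotency factor, lies at chr6:122707239-122707488 on the plus strand. Its capitals mark a match to 1 form of the composite OCT4 and SOX2 motif, TTTGCAT followed by 1 base of any kind and ACAATG. The match begins at position -75 from the start.
Nanog: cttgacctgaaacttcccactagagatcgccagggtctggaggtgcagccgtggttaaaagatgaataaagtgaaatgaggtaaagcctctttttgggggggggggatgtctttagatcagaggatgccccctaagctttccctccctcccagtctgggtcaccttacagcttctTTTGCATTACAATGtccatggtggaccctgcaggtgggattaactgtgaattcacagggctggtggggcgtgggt
Zfp42 (REX1), a marker of naive ES cells, has its window at chr8:43307010-43307259 on the minus strand, with an octamer, ATGCAAAT on either strand, in capitals at position -186.
Zfp42: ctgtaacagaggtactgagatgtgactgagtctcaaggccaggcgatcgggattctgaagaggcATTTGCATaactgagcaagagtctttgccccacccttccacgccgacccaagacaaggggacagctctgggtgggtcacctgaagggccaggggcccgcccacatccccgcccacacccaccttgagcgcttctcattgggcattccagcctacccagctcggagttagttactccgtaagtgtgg
Tnnt2, cardiac troponin T, has its window at chr1:135836084-135836333 on the plus strand, with a GATA motif, AGATAA on either strand, in capitals at position -166.
Tnnt2: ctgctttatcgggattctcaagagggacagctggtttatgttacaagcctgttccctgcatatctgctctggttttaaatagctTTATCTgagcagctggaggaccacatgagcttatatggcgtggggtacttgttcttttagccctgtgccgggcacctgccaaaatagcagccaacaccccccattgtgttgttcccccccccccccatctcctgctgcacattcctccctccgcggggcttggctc
Both strands of all 32851 promoter windows in the RefSeq table were searched. The exact composite string was in 2 of them, both starts of Nanog, the octamer was in 1.6% and the GATA motif in 9.99%. The composite string holds the letters of the Nanog site with 1 base left free, and looser forms were not searched. Its count therefore does not show how rare composite sites are. All marked stretches are matches of letters and were not tested as sites of binding.

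Core pluripotency genes rose as a list. Of 12 tested, 10 rose and 0 fell, with a median log2 fold change of 2.73. Pou5f1 (OCT4), at the head of the pluripotency network, was 421 and 465 RPKM in GSK343 libraries 1 and 2, against 60.9 and 54.5 RPKM in DMSO libraries 1 and 2. It had been 534 and 657 RPKM under GSK343 and 524 and 646 RPKM under DMSO at day 4, so the groups overlapped at day 4 and not at day 8. In ES cells it was 492 and 488 RPKM under GSK343 and 535 and 591 RPKM under DMSO. Sox2, its partner, was 146 and 194 RPKM under GSK343 and 16.7 and 19.3 RPKM under DMSO at day 8. Nanog was 40.8 and 75.2 RPKM, against 9.56 and 7.88 RPKM (2.54, SE 0.25, adjusted p = 5.46e-05). Tdgf1 (CRIPTO), a Nodal co-receptor of the epiblast, was 315 and 283 RPKM under GSK343, against 29.3 and 10.9 RPKM under DMSO (3.98, SE 0.33, adjusted p = 1.77e-05). Utf1, a chromatin factor of ES cells, was 119 and 132 RPKM, against 6.09 and 6.83 RPKM (4.09, SE 0.12, adjusted p = 2.03e-08). GSK343 and DMSO libraries did not overlap for any of these genes. The same held for all 2193 genes called higher and all 2241 called lower, so it adds nothing to the calls. The members that did not pass were the RNA-binding gene Lin28a, at 144 and 71.7 RPKM under GSK343 and 124 and 93.8 RPKM under DMSO, and Zfp281, at 38.8 and 29.2 RPKM against 24.4 and 21.6 RPKM.

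Naive pluripotency genes, which mark the ground state of ES cells, behaved alike. Of 19 tested, 16 rose and 0 fell (median 2.12). Zfp42 was 113 and 237 RPKM in GSK343 libraries 1 and 2, against 6.86 and 7.19 RPKM in the DMSO libraries (4.36, SE 0.27, adjusted p = 2.42e-06). The orphan receptor Esrrb was 22.5 and 38.6 RPKM, against 2.15 and 1.30 RPKM (3.50, SE 0.27, adjusted p = 9.34e-06). Both GSK343 libraries lay far above both DMSO libraries, and library 2 was the higher of the GSK343 libraries for each gene. The growth factor Fgf4 was 51.4 and 104 RPKM under GSK343 and 3.80 and 3.10 RPKM under DMSO (4.07, SE 0.30, adjusted p = 7.12e-06). Gdf3, a ligand of the TGF-beta family, was 29.8 and 41.0 RPKM, against 1.43 and 1.61 RPKM (3.83, SE 0.15, adjusted p = 1.45e-07). Dppa5a, an RNA-binding gene with near-identical copies in the genome, rose by 4.16 (SE 0.28, adjusted p = 4.29e-06), a value that is uncertain because the authors' counting could split such reads. Members that did not pass included Klf4, a reprogramming factor, at 6.51 and 9.61 RPKM under GSK343 and 6.40 and 4.51 RPKM under DMSO. Tbx3 was 3.99 and 5.34 RPKM against 10.5 and 5.92 RPKM. The naive list already stood apart at day 4, where 9 of its members were higher under GSK343 and 0 lower (median 1.49) against a background of 0.499% higher, whereas the core list had 0 called there (median 0.16).

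**Figure D1:**
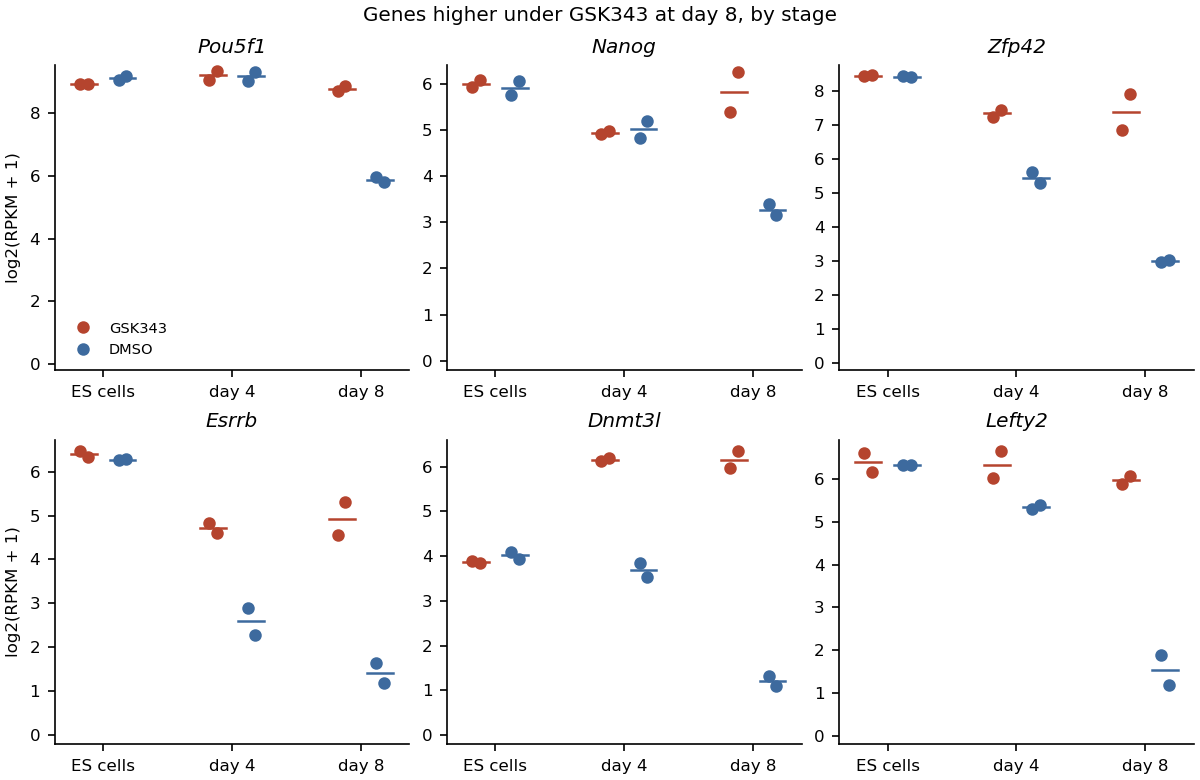
Levels of 6 genes as log2(RPKM + 1) in ES cells and at day 4 and day 8, 1 point per library (n = 2 per group) with a bar at the group mean, GSK343 left of DMSO at each stage. At day 8 both GSK343 libraries lie above both DMSO libraries for every gene shown, while Pou5f1 and Nanog overlap between the groups at day 4.

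Formative and primed genes, which mark the epiblast on its way out of pluripotency, were mixed, with 7 of 14 higher and 2 lower (median 0.90, or 0.51 without GSK343 library 1 and 1.46 without GSK343 library 2). Otx2, a homeobox factor of this state, was 65.1 and 51.5 RPKM under GSK343, against 8.00 and 7.52 RPKM under DMSO (2.75, SE 0.30, adjusted p = 0.000103). The forkhead gene Foxd3 was 23.4 and 10.4 RPKM, against 0.616 and 0.216 RPKM (3.57, SE 0.36, adjusted p = 5.82e-05). Fgf5, a marker of the primed epiblast, was 15.3 and 4.20 RPKM, against 1.07 and 0.455 RPKM (2.41, SE 0.41, adjusted p = 0.00149). For all these genes GSK343 library 1 was higher than library 2, the reverse of the order seen for Zfp42, Esrrb and Fgf4. Naive and primed genes were thus high in the same libraries, and these values do not show whether in the same cells. Nkd1, a Wnt antagonist counted in this list, fell (-1.89, SE 0.21, adjusted p = 0.000101).

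Genes of DNA methylation moved with them, 4 of 8 higher and 0 lower (median 1.0). Dnmt3l, the cofactor of the de novo methyltransferases and a deposited PRC2 target, had the largest rise of the named genes on the log2(RPKM + 1) scale, a place that Rpl39l took with a pseudocount of 0.1 RPKM, with voom and without GSK343 library 1. Dnmt3l was 61.4 and 80.2 RPKM in GSK343 libraries 1 and 2, against 1.48 and 1.15 RPKM in DMSO libraries 1 and 2 (4.94, SE 0.17, adjusted p = 5.68e-08). The day 4 levels were 68.7 and 72.0 RPKM under GSK343 and 13.4 and 10.5 RPKM under DMSO, and those of ES cells were 13.8 and 13.3 RPKM against 16.1 and 14.4 RPKM. Levels under GSK343 were therefore much the same at day 4 and day 8, while those under DMSO were lower at day 8. Dnmt3b, a de novo methyltransferase, differed between the GSK343 libraries, at 349 and 88.7 RPKM, against 38.9 and 27.2 RPKM under DMSO (2.40, SE 0.55, adjusted p = 0.00790). Tet1, which oxidises methylcytosine, was 40.7 and 30.6 RPKM, against 7.33 and 4.55 RPKM (2.42, SE 0.38, adjusted p = 0.000919). Without DMSO library 2, 2 of the 4 calls of this list were kept.

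Germline and meiosis genes, many of which ES cells share with germ cells, rose as a list, with 20 of 26 higher and 0 lower (median 1.54). Tex19.1, which restrains retrotransposons, was 58.9 and 70.2 RPKM under GSK343, against 3.61 and 3.71 RPKM under DMSO (3.81, SE 0.19, adjusted p = 7.44e-07). Tdrd12, a piRNA pathway gene, was 25.3 and 39.2 RPKM, against 2.03 and 1.72 RPKM (3.50, SE 0.20, adjusted p = 1.25e-06). Mael, Dazl and Ddx4, germ cell RNA regulators, also rose, by 2.83, 1.93 and 2.03. Stra8, the gene of meiotic entry, was seen in 1 GSK343 library, at 0.155 and 7.52 RPKM under GSK343 and 0.166 and 0.155 RPKM under DMSO, and did not pass (1.43, SE 0.68, adjusted p = 0.136). Prdm1, a gene of primordial germ cell specification, was 1.48 and 3.01 RPKM against 1.99 and 0.997 RPKM and did not pass either.

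Members of the Nodal pathway moved in both directions, 5 of 14 higher and 4 lower (median -0.14, or -0.23 to -0.05 with each day 8 library left out). The ligand Nodal was 37.3 and 28.7 RPKM in GSK343 libraries 1 and 2, against 4.50 and 3.73 RPKM in the DMSO libraries (2.73, SE 0.18, adjusted p = 3.09e-06). Lefty2, an antagonist that Nodal itself induces, was 58.0 and 66.3 RPKM, against 2.70 and 1.27 RPKM (4.44, SE 0.26, adjusted p = 1.42e-06). Lefty1 was 41.4 and 49.0 RPKM, against 1.77 and 1.62 RPKM (4.1, SE 0.18, adjusted p = 2.46e-07), and the similar Lefty genes share sequence, so single values are uncertain. Pcsk6 (PACE4), a convertase that matures the Nodal ligand, was 12.3 and 15 RPKM, against 1.76 and 1.18 RPKM (2.57, SE 0.16, adjusted p = 2.11e-06). The ligand, its convertase, the co-receptor Tdgf1 and both antagonists were thus higher in every GSK343 library. In contrast the other co-receptor, Cfc1 (CRYPTIC), which is used in later patterning, was 5.25 and 2.13 RPKM under GSK343, against 114 and 105 RPKM under DMSO (-4.64, SE 0.27, adjusted p = 1.37e-06). The transcription factor Foxh1 fell by 0.63 (adjusted p = 0.0243), a call that was lost without either GSK343 library and without DMSO library 1.

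The largest fall of the named genes was that of a blood gene. Of 16 primitive blood genes, 15 fell and 0 rose (median -1.52). Hbb-bh1, an embryonic beta-like globin, was 0.0745 and 0.177 RPKM in GSK343 libraries 1 and 2, against 156 and 525 RPKM in DMSO libraries 1 and 2 (-8.00, SE 0.48, adjusted p = 1.90e-06). These values are 1 and 2 reads, against 1563 and 5615 reads, and the rate in DMSO was 2857 times that in GSK343 libraries (95% exact interval 977 to 13858, counting error only). Hba-x, the embryonic zeta globin, had 0 and 1 reads under GSK343, against 167 and 685 reads under DMSO (ratio of DMSO to GSK343 1017, interval 182 to 40233). Globin genes have close copies, so reads could be split among them. Tal1 and Lmo2, which build the blood-forming transcription complex, fell by 2.06 and 2.05 on the log2 scale. DMSO library 2 had the higher level of every one of these genes.

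Vessel genes fell with them. Of 19 endothelial genes 13 fell and 2 rose (median -1.35). Kdr (VEGFR2), the receptor of early vascular and blood progenitors, was 0.492 and 0.197 RPKM under GSK343, against 27.7 and 22.7 RPKM under DMSO (-4.29, SE 0.15, adjusted p = 6.10e-08). Cdh5 (VE-cadherin) was 0.559 and 0.0541 RPKM, against 3.36 and 5.45 RPKM (-2.05, SE 0.20, adjusted p = 5.49e-05). Nrp1, a VEGF and semaphorin co-receptor outside the list, was 1.67 and 0.319 RPKM, against 101 and 136 RPKM (-5.98, SE 0.33, adjusted p = 1.08e-06). The 2 members of the list that rose are not named here. Pecam1, which ES cells also express, was higher without passing, at 18.5 and 51.7 RPKM under GSK343 and 10.8 and 16.6 RPKM under DMSO.

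Most cardiac transcription factors tested fell. Of 16 tested, 13 fell and 0 rose (median -2.27). Their median level at day 8 was 0.69 RPKM under GSK343 and 11.1 RPKM under DMSO. Here too members could pass the filter through the DMSO libraries alone, so the count is a description. Hand2 was 0.264 and 0.0482 RPKM in GSK343 libraries 1 and 2, against 42.2 and 50.3 RPKM in DMSO libraries 1 and 2 (-5.35, SE 0.14, adjusted p = 1.49e-08). Hand1 was 0.958 and 0.852 RPKM, against 55.7 and 62.6 RPKM (-4.98, SE 0.20, adjusted p = 1.52e-07). Hand1 and Hand2 pattern the heart and extraembryonic mesoderm, and no GSK343 library reached 1 RPKM for either. Tbx20 was 0.811 and 0.696 RPKM, against 23.5 and 19.2 RPKM (-3.67, SE 0.27, adjusted p = 6.46e-06), and Isl1, a marker of cardiac progenitors, was 1.19 and 0.235 RPKM, against 17.0 and 10.9 RPKM (-3.15, SE 0.27, adjusted p = 2.24e-05). Nkx2-5, another cardiac factor, was low in both groups, at 0.716 and 0.637 RPKM under GSK343 and 1.28 and 0.524 RPKM under DMSO, and did not pass. Of 19 sarcomere and conduction genes 12 fell and 1 rose (median -0.96). Tnni1, the slow troponin I of the embryonic heart, was 0.449 and 1.06 RPKM, against 41.8 and 81.5 RPKM (-5.10, SE 0.27, adjusted p = 9.29e-07). Tnnt2 was 0.109 and 0.258 RPKM, against 5.59 and 2.60 RPKM (-2.04, SE 0.23, adjusted p = 0.000119).

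**Figure D2:**
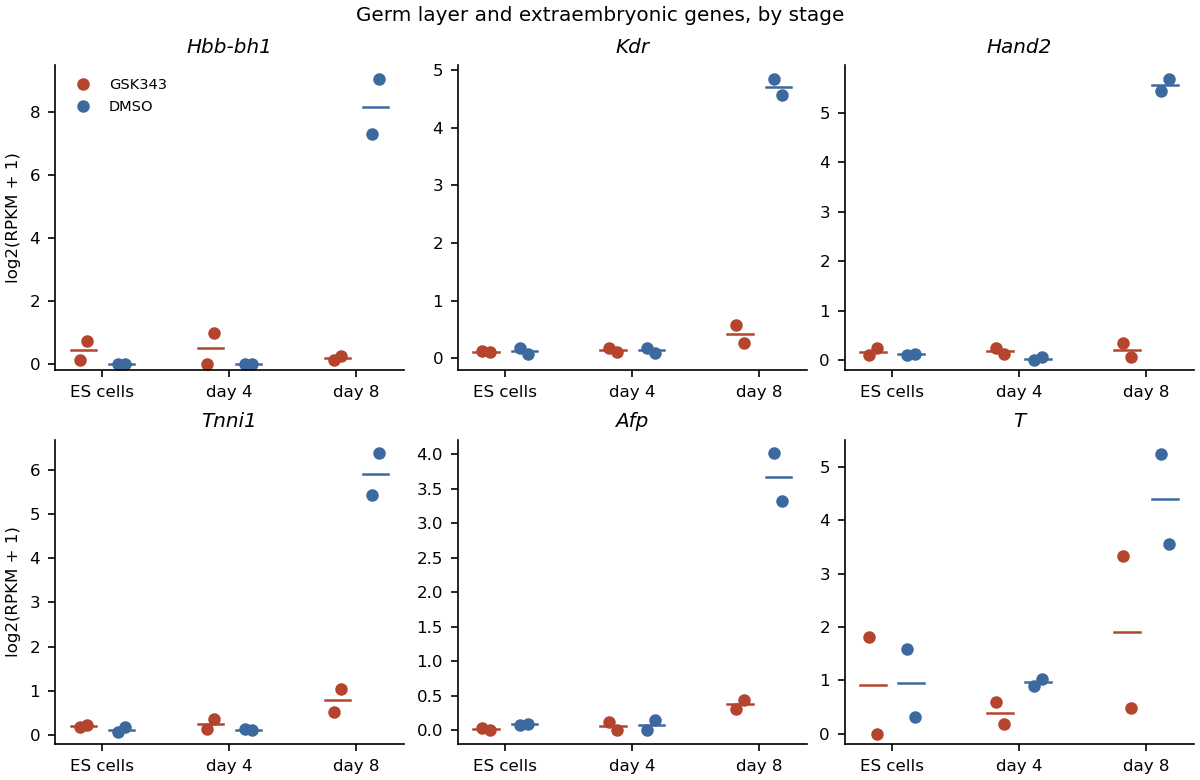
Levels of 6 lineage genes as log2(RPKM + 1) in ES cells and at day 4 and day 8, 1 point per library (n = 2 per group) with a bar at the group mean, GSK343 left of DMSO at each stage. Hbb-bh1, Kdr, Hand2, Tnni1 and Afp are near 0 in all libraries before day 8 and high at day 8 in DMSO libraries alone, whereas the day 8 points of T spread widely in both groups.

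Primitive streak genes, which precede these lineages, were less uniform. Of 17 tested, 5 fell (29.4%) and 0 rose, against 16% and 15.6% of all genes (list median -0.54). The median was -0.88 with 8 lower without GSK343 library 1, -0.17 with 2 higher and 3 lower without GSK343 library 2, and -0.88 with 6 lower without DMSO library 2. T (Brachyury), the defining factor of nascent mesoderm, was 9.09 and 0.395 RPKM in GSK343 libraries 1 and 2, against 37.1 and 10.8 RPKM in DMSO libraries 1 and 2, and did not pass (-2.50, SE 0.90, adjusted p = 0.0584). It passed without GSK343 library 1 (-3.92, adjusted p = 0.00602). Mesp1, which marks early cardiac mesoderm, was 1.22 and 0.050 RPKM, against 60.1 and 14.7 RPKM (-4.34, SE 0.52, adjusted p = 0.000181). Cdx2, a caudal homeobox gene, was 0.657 and 0.126 RPKM, against 24.1 and 10.5 RPKM (-3.64, SE 0.43, adjusted p = 0.000164). In both groups library 1 was higher than library 2 for T, Mesp1 and Cdx2. Eomes, which acts in streak and endoderm, was 9.76 and 3.99 RPKM under GSK343 and 6.0 and 1.30 RPKM under DMSO and did not pass. Without GSK343 library 2 or DMSO library 1, 3 of the 5 calls were kept. Of 38 Hox genes, which are induced along the body axis, 16 were in the table and 15 passed the filter on low values, and of these 11 fell and 0 rose (median -1.37). Their median level at day 8 was 0.11 RPKM under GSK343 and 1.90 RPKM under DMSO. Members could thus pass the filter through the DMSO libraries alone, which favours falls, so the count is a description. Hoxb2 was 0.140 and 0.0992 RPKM, against 8.93 and 10.6 RPKM (-3.26, SE 0.17, adjusted p = 9.32e-07). Hoxb13 was at 0.157 RPKM or less in all 4 libraries.

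The signals that pattern mesoderm fell as well. Of 21 BMP pathway genes 15 fell and 0 rose (median -1.88). Among ligands, Bmp4 was 7.13 and 12.9 RPKM under GSK343, against 68.7 and 59.0 RPKM under DMSO (-2.61, SE 0.28, adjusted p = 8.34e-05), and Bmp2 was 1.30 and 0.181 RPKM, against 21.9 and 15 RPKM (-3.54, SE 0.28, adjusted p = 1.11e-05). At day 4 Bmp4 had been higher under GSK343, at 10.3 and 12.6 RPKM, against 1.93 and 2.52 RPKM under DMSO (1.95, adjusted p = 0.0177), so its difference changed direction between the stages (day 8 minus day 4 -4.55, adjusted p = 7.03e-05). Among targets, Id2 was 7.86 and 8.60 RPKM, against 77.5 and 73.9 RPKM (-3.06, SE 0.15, adjusted p = 7.44e-07), and the homeobox genes Msx1 and Msx2 fell by 3.47 and 4.35 on the log2 scale. Canonical Wnt genes fell in 8 of 19 and rose in 0 (median -0.84), among them the agonist Rspo3, at 2.07 and 0.225 RPKM against 22.1 and 9.81 RPKM. Without GSK343 library 2 or DMSO library 1, 5 of those 8 calls were kept, and the medians were -0.26 and -0.54.

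FGF genes moved in both directions, 7 of 18 higher and 6 lower (median 0.00, or -0.30 to 0.30 with each day 8 library left out). Spry4, a feedback inhibitor of the ERK cascade, was 17.8 and 8.13 RPKM under GSK343, against 2.65 and 0.535 RPKM under DMSO (2.47, SE 0.43, adjusted p = 0.00163). The ERK-induced factor Etv5 was 51.7 and 40.7 RPKM, against 8.33 and 4.07 RPKM (2.77, SE 0.24, adjusted p = 1.93e-05). Of the receptors, Fgfr3 was 0.539 and 0.438 RPKM, against 24.3 and 38.1 RPKM (-4.40, SE 0.22, adjusted p = 7.44e-07), and Fgfr2 was 2.52 and 2.78 RPKM, against 21.5 and 17.1 RPKM (-2.47, SE 0.15, adjusted p = 2.07e-06). In the retinoic acid list 8 of 13 fell and 2 rose (median -1.69, or -1.0 without GSK343 library 2). The receptor gene Rarb, itself a target of the signal, was 0.313 and 0.385 RPKM, against 3.29 and 3.41 RPKM (-1.69, SE 0.11, adjusted p = 2.91e-06).

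Extraembryonic and endoderm genes were also lower. Of 19 secreted and uptake genes of the visceral endoderm, which nourishes the early embryo, 12 fell and 1 rose (median -2.05, or -1.07 without GSK343 library 2). Ttr (transthyretin) was 2.49 and 0.662 RPKM under GSK343, against 71.9 and 55.8 RPKM under DMSO (-4.74, SE 0.39, adjusted p = 1.47e-05). Afp (alpha-fetoprotein) was 0.240 and 0.362 RPKM, against 15.2 and 9.02 RPKM (-3.29, SE 0.19, adjusted p = 1.49e-06). Apoa1, an apolipoprotein, was 0.552 and 0.655 RPKM, against 12.1 and 11.6 RPKM (-3.01, SE 0.33, adjusted p = 9.64e-05). The member that rose was Trf (transferrin), at 3.94 and 5.04 RPKM against 0.522 and 0.538 RPKM (1.84, SE 0.17, adjusted p = 3.01e-05). Of 15 definitive endoderm genes 8 fell and 3 rose (median -1.27, or -0.58 with 5 lower and 4 higher without GSK343 library 2), and 7 of those 11 calls were kept without DMSO library 1. Gata6, which acts in both endoderm and heart, was 4.41 and 0.624 RPKM, against 29.8 and 30.2 RPKM (-3.39, SE 0.43, adjusted p = 0.000237). Gata4 was 8.48 and 1.36 RPKM, against 27.5 and 16.0 RPKM (-2.22, SE 0.52, adjusted p = 0.00905), and its call was lost without DMSO library 1 (adjusted p = 0.0742). Sox17, at 4.55 and 0.382 RPKM against 10.5 and 6.63 RPKM (-1.76, SE 0.52, adjusted p = 0.0259), lost its call without GSK343 library 2 or either DMSO library. GSK343 library 1 was above library 2 for all of Gata6, Gata4 and Sox17. Of 14 trophoblast genes 9 fell and 0 rose (median -0.88), with the simple keratin Krt8 at 38.8 and 94.9 RPKM against 229 and 325 RPKM (-2.15, SE 0.37, adjusted p = 0.00165).

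Mesenchyme gave the same direction. Of 26 collagen and matrix genes 12 fell and 1 rose (median -1.05, or -0.61 without GSK343 library 2). Of 17 fibroblast and smooth muscle genes 11 fell and 0 rose (median -0.97, or -1.63 without that library). Postn (periostin) was 0.124 and 0.981 RPKM under GSK343, against 14.1 and 51.0 RPKM under DMSO (-4.23, SE 0.48, adjusted p = 0.000135). Twist1, a factor of mesenchyme and epithelial transition, was 7.45 and 3.07 RPKM, against 35.6 and 38.1 RPKM (-2.69, SE 0.30, adjusted p = 0.000107). Cdh1 (E-cadherin), the epithelial cadherin of ES cells, was 122 and 80.3 RPKM, against 36.5 and 36.8 RPKM (1.41, SE 0.17, adjusted p = 0.000192). Of the 11 fibroblast calls 6 were kept without GSK343 library 1 and 5 without DMSO library 2. The basement membrane gene Col4a1 did not pass, at 202 and 29.6 RPKM under GSK343 and 209 and 136 RPKM under DMSO.

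Imprinted genes, which are expressed from 1 parental allele, fell in 15 of 28 and rose in 1 (median -1.24). Dlk1 was 0.132 and 0.134 RPKM under GSK343, against 9.52 and 13.8 RPKM under DMSO (-3.46, SE 0.15, adjusted p = 2.76e-07). The neighbours Igf2, a fetal growth factor, and H19, a noncoding RNA, were picked out after their values had been seen. Igf2 was 3.78 and 6.62 RPKM, against 116 and 173 RPKM (-4.56, SE 0.26, adjusted p = 1.38e-06). H19 was 47.0 and 126 RPKM, against 847 and 1359 RPKM (-3.78, SE 0.38, adjusted p = 6.18e-05). Meg3, a noncoding RNA of the Dlk1 domain, was 10.7 and 4.55 RPKM, against 14.8 and 11.6 RPKM and did not pass, so genes of that domain did not all give a call.

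Neural genes were the lineage list that was higher. Of 9 tested, 6 rose and 1 fell (median 1.09, or 0.53 without GSK343 library 1), and 4 of those 7 calls were kept without GSK343 library 1 or DMSO library 2. Tubb3, a neuronal tubulin, was 49.95 and 55.3 RPKM under GSK343, against 7.0 and 6.66 RPKM under DMSO (2.78, SE 0.17, adjusted p = 2.21e-06). It was 60.3 and 49.5 RPKM in GSK343 and 54.9 and 47.9 RPKM in DMSO ES cells, so the day 8 level under GSK343 was within the range of ES cells. Pax6, the neural and eye factor, was 0.859 and 0.713 RPKM, against 0.396 and 0.132 RPKM (0.51, SE 0.14, adjusted p = 0.0170), and its call was lost without GSK343 library 1 or DMSO library 2. Of the 22 genes in the neural list only 11 were in the table, and 9 passed the filter on low values.

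**Figure D3:**
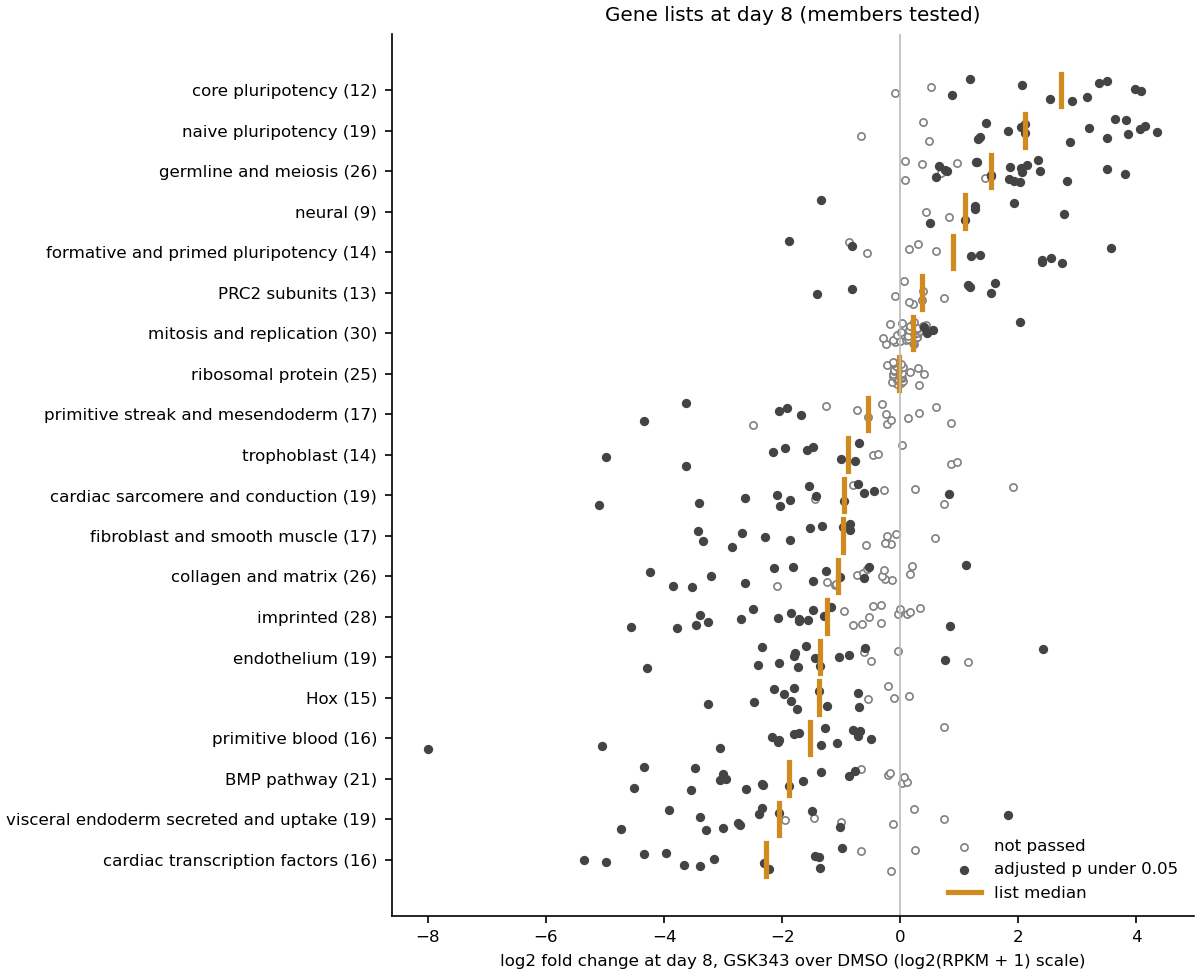
Log2 fold changes at day 8 of the members of 20 gene lists, 1 point per gene, filled where the adjusted p was under 0.05, with the list median as a bar and the number of members tested in parentheses. Medians run from -2.27 for cardiac transcription factors to 2.73 for core pluripotency genes, and ribosomal protein genes lie at -0.01 with 0 of 25 called.

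Housekeeping lists stayed close to the median of all genes. Of 25 ribosomal protein genes 0 passed with limma or with voom (median -0.01, or -0.22 to 0.19 with each day 8 library left out). Of 30 mitosis and replication genes 4 rose (13.3%) and 0 fell, against 15.6% and 16% of all genes, so rises were near the background. The list median was 0.22, or 0.14 without GSK343 library 2. These calls rested in part on GSK343 library 2 and on each DMSO library. Ccne1 (cyclin E), abundant in ES cells, was 66.6 and 56.7 RPKM under GSK343, against 13.7 and 15 RPKM under DMSO (2.02, SE 0.24, adjusted p = 0.000151). Among cell cycle inhibitors, 2 of 10 rose (20%) and 4 fell (40%), against the same shares of all genes, so rises were near the background. Cdkn2a, a known target of Polycomb repression, was 15.4 and 14.5 RPKM, against 3.54 and 2.91 RPKM (1.92, SE 0.26, adjusted p = 0.000405), and its neighbour Cdkn2b was 5.16 and 7.62 RPKM, against 1.18 and 1.68 RPKM (1.59, SE 0.26, adjusted p = 0.00118). Cdkn1c, an imprinted inhibitor, fell (-1.30, SE 0.24, adjusted p = 0.00261). Without GSK343 library 1 or DMSO library 2, 3 of the 6 calls were kept.

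Polycomb genes themselves moved in both directions. Of 13 PRC2 genes 4 rose (30.8%) and 2 fell (15.4%), against 15.6% and 16% of all genes (list median 0.38). Falls were thus near the background, and these calls rested in part on DMSO library 2. Core subunits Eed and Suz12 did not pass (0.38 and 0.75, adjusted p = 0.223 and 0.116), nor did the paralog Ezh1 (0.15, adjusted p = 0.681). Jarid2, an accessory subunit that recruits PRC2 in ES cells, was 92.9 and 87.3 RPKM under GSK343, against 33.4 and 27.8 RPKM under DMSO (1.53, SE 0.27, adjusted p = 0.00200). Rbbp7, a histone chaperone shared with other complexes, was 150 and 136 RPKM, against 357 and 403 RPKM (-1.41, SE 0.13, adjusted p = 3.95e-05). In PRC1, which reads the mark, 5 of 21 rose (23.8%) and 7 fell (33.3%), with a median of -0.13, or -0.07 without DMSO library 1. Cbx7, the reader used in ES cells, was 39.9 and 45.0 RPKM, against 13.7 and 11.2 RPKM (1.70, SE 0.20, adjusted p = 0.000141). Cbx8, a reader of differentiated cells, was 1.40 and 1.59 RPKM, against 8.48 and 8.60 RPKM, and fell by 1.94 on the log2 scale.

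Outside these lists, 3 of the largest rises were Tcf15, L1td1 and Rpl39l. Tcf15, a basic helix-loop-helix factor of the primed state in ES cells and of somites, was 87.9 and 55.3 RPKM under GSK343, against 3.40 and 2.14 RPKM under DMSO. L1td1, an RNA-binding gene of ES cells, was 163 and 124 RPKM, against 9.31 and 6.01 RPKM. Rpl39l, which has close copies and is therefore uncertain, was 14.7 and 52.4 RPKM, against 0.378 and 0.425 RPKM. Among the largest falls, Capn6, a calpain-like gene, was 0.780 and 0.925 RPKM, against 47.9 and 57.3 RPKM (-4.85), and Prdm6, a repressor of the smooth muscle lineage, was 0.524 and 0.0414 RPKM, against 36.4 and 29.5 RPKM (-4.74). Neither GSK343 library reached 1 RPKM for Capn6 or Prdm6. Of 20 hypoxia and glycolysis genes 1 rose (5%) and 6 fell (30%), against 15.6% and 16% of all genes. The list median was -0.32, or -0.12 without GSK343 library 1 and -0.48 without GSK343 library 2. These calls rested in part on DMSO library 1. Of 20 p53 targets 4 rose (20%) and 1 fell (5%), against 15.6% and 16% of all genes. The list median was 0.12, or -0.0027 without GSK343 library 1, and these calls rested in part on DMSO library 1. Of 19 genes of the switch between epithelium and mesenchyme 3 rose (15.8%) and 8 fell (42.1%), so rises were near the background. The list median was -0.22, or -0.56 without GSK343 library 1 and 0.10 without GSK343 library 2. Of 10 regulators of extraembryonic endoderm 0 rose and 6 fell (median -1.45, or -2.36 without GSK343 library 1 and -0.71 without GSK343 library 2). Of 11 genes of H3K27 demethylases and COMPASS, the complexes that methylate lysine 4 of histone H3, 3 rose (27.3%) and 0 fell, against the same shares of all genes. These calls rested in part on GSK343 library 2 and on each DMSO library.

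How did genes that carry the mark in wild-type cells move? The authors' deposited call of PRC2 targets, made by a rule that no source used here states, covered 13222 of the genes tested. Of 4040 targets 16.5% were higher under GSK343 and 25.2% lower (median -0.06), against 14.8% higher and 11.3% lower of 9182 other genes (median 0.02) and 15.6% and 16% of all genes. Falls were thus more frequent among targets than among all genes, and rises were near the background. Targets have lower levels than other genes, so the shares were also taken within ranges of the mean over all 12 libraries. For means from 1 to 10 RPKM 18% of targets were higher and 27.8% lower, against 14.1% and 13.3% of other genes. For means of 10 RPKM or more the shares were 18.7% and 16.1% of targets, against 15.3% and 9.52% of other genes. Under 1 RPKM they were 9.82% and 31.1% of targets, against 14.1% and 16.4% of other genes. In that range a gene could pass the filter on low values through the DMSO day 8 libraries alone. The means also include the 4 libraries compared, so the range of a gene depends in part on its day 8 levels. The shares of falls are therefore not clean comparisons at equal level in any range. With the deposited peaks, merged over wild-type stages, 466 genes whose RefSeq span lay within 1 kb of both an H3K27me3 peak and a peak of the PRC1 subunit Ring1B were higher in 13.9% and lower in 39.9% (median -0.32). The median level of these 466 genes under DMSO at day 8 was 3.49 RPKM, against 8.93 RPKM of all genes. They were not split by level, and members could pass the filter through the DMSO libraries alone. Hand2 and Igf2 are among these 466 genes. The 3752 genes near an H3K27me3 peak and not near a Ring1B peak were higher in 18% and lower in 25.4%. Genes near a peak of the PRC2 subunit Suz12 in 1 wild-type day 8 library, 3082 in number, were higher in 17.5% and lower in 20.9%. These shares are descriptions and were not tested.

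**Figure D4:**
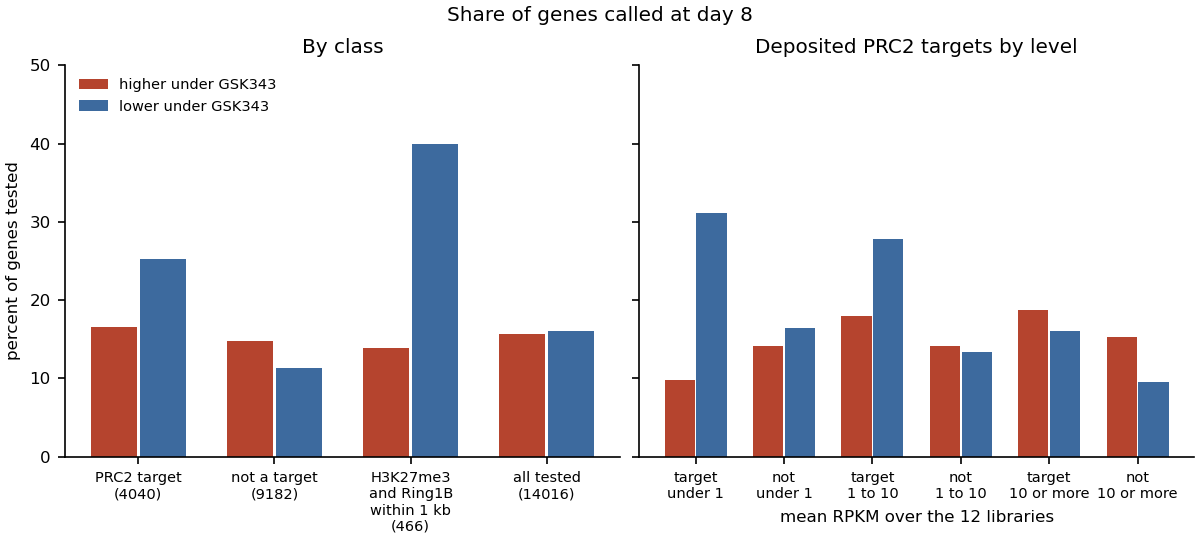
Percent of genes tested that were higher or lower under GSK343 at day 8 (limma, adjusted p under 0.05), by class in the left panel with the number of genes in parentheses, and for deposited PRC2 targets and other genes within ranges of mean RPKM in the right panel. Lower genes reach 39.9% where both H3K27me3 and Ring1B peaks lie within 1 kb, against 16% of all genes. That class was not split by level, and the means in the right panel include the day 8 libraries.

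The day 8 difference was larger than at the earlier stages. In ES cells 0 genes passed in limma and 0 in voom, although 669 had an unadjusted limma p under the threshold, and at day 4 limma found 70 higher and 18 lower. GSK343 ES cell library 2 had 5.0 M reads, the lowest depth of the 12 libraries, which limits the comparison in ES cells. Of the 70, 60 (85.7%) were also higher at day 8, where they were 2.74% of the genes that rose. Of the 18 lower at day 4, 7 were lower and 5 were higher at day 8. The change in the GSK343 effect from day 4 to day 8 was tested as an interaction, and 796 genes had a more positive and 913 a more negative effect at day 8, together 12.2% of those tested. Between ES cells and day 8 the effect became more positive in 1253 genes (8.94%) and more negative in 1541 (11%), together 2794 or 19.9%. These counts were 1076 and 1768 without DMSO day 8 library 2. Among the genes ranked, the largest positive interaction on the log2(RPKM + 1) scale was that of Platr10, a noncoding RNA of ES cells (4.64, adjusted p = 2.67e-06). Platr10 was 50.3 and 51.6 RPKM under GSK343 and 1.54 and 1.71 RPKM under DMSO at day 8, and 47.5 and 67.4 RPKM against 67.4 and 75.8 RPKM at day 4.

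The EZH2 mutant line was measured in a separate table, so its values stand beside those of the inhibitor and no test was made across them. At day 8, 184 genes were higher in the mutant than in wild type, 1.3% of 14180 tested, and 30 were lower, 0.212%, together 1.51%. Without wild-type library 3 the counts were 825 and 483. No other library of that table was left out in turn, and no measure of how library 3 departed from its group is given here. Of 177 genes higher in the mutant and tested in both tables, 123 (69.5%) were also higher under GSK343, and they were 5.68% of its 2165. Of 30 lower in the mutant 14 were lower under GSK343. Of 8 genes the direction was opposite, higher in the mutant and lower under GSK343. Pluripotency lists had the same sign in both, with a core median of 2.73 under GSK343 and 1.82 in the mutant (2.59 without wild-type library 3), and a naive median of 2.12 and 1.98 (2.71). In the mutant 0 of 12 core and 2 of 19 naive genes passed, or 7 and 10 without wild-type library 3. Dnmt3l rose in both (3.79, SE 0.68, adjusted p = 0.0160 in the mutant).

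Visceral endoderm was 1 of several lists that differed in sign between inhibitor and mutant. Of its 19 genes 12 fell and 1 rose under GSK343, whereas 0 fell and 6 rose in the mutant (median 1.74, or 1.06 with 8 higher and 0 lower without wild-type library 3). Afp was 29.8, 6.89 and 66.5 RPKM in mutant libraries 1 to 3, against 3.83, 6.72 and 1.47 RPKM in wild-type libraries 1 to 3 (2.49, SE 0.53, adjusted p = 0.0362, and 2.06 without wild-type library 3, adjusted p = 0.0323). Apob, an apolipoprotein, was 54.6, 7.38 and 93.9 RPKM in the mutant, against 5.16, 5.65 and 2.39 RPKM in wild type (2.77, SE 0.59, adjusted p = 0.0343). Under GSK343 it was 0.980 and 0.469 RPKM, against 13.8 and 7.52 RPKM under DMSO (-2.72, SE 0.30, adjusted p = 0.000117). All 3 mutant libraries lay above all 3 wild-type libraries for both genes, though mutant library 2 only narrowly, and both GSK343 libraries lay below both DMSO libraries. Ttr was higher in the mutant by 1.40 without passing (adjusted p = 0.432), and by 0.14 without wild-type library 3. Cardiac, blood and BMP lists were negative in both, with smaller medians in the mutant (-0.80, -0.45 and -0.49, or -1.82, -0.94 and -0.92 without wild-type library 3). The primitive streak median was -0.54 under GSK343 and 0.72 in the mutant (0.40 without wild-type library 3). Definitive endoderm genes tested in both gave -1.09 and 0.55 (0.40), and extraembryonic endoderm regulators -1.45 and 0.43 (0.21). Neural genes gave 1.09 and -0.27, or 0.36 without that library. The difference between the mutant and the inhibitor was not tested. Uty, a Y-linked gene, was also lower in the mutant (-3.83, SE 0.30, limma adjusted p = 1.10e-05). Whether the mutant and wild-type lines differ in more than EZH2 was not tested.

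**Figure D5:**
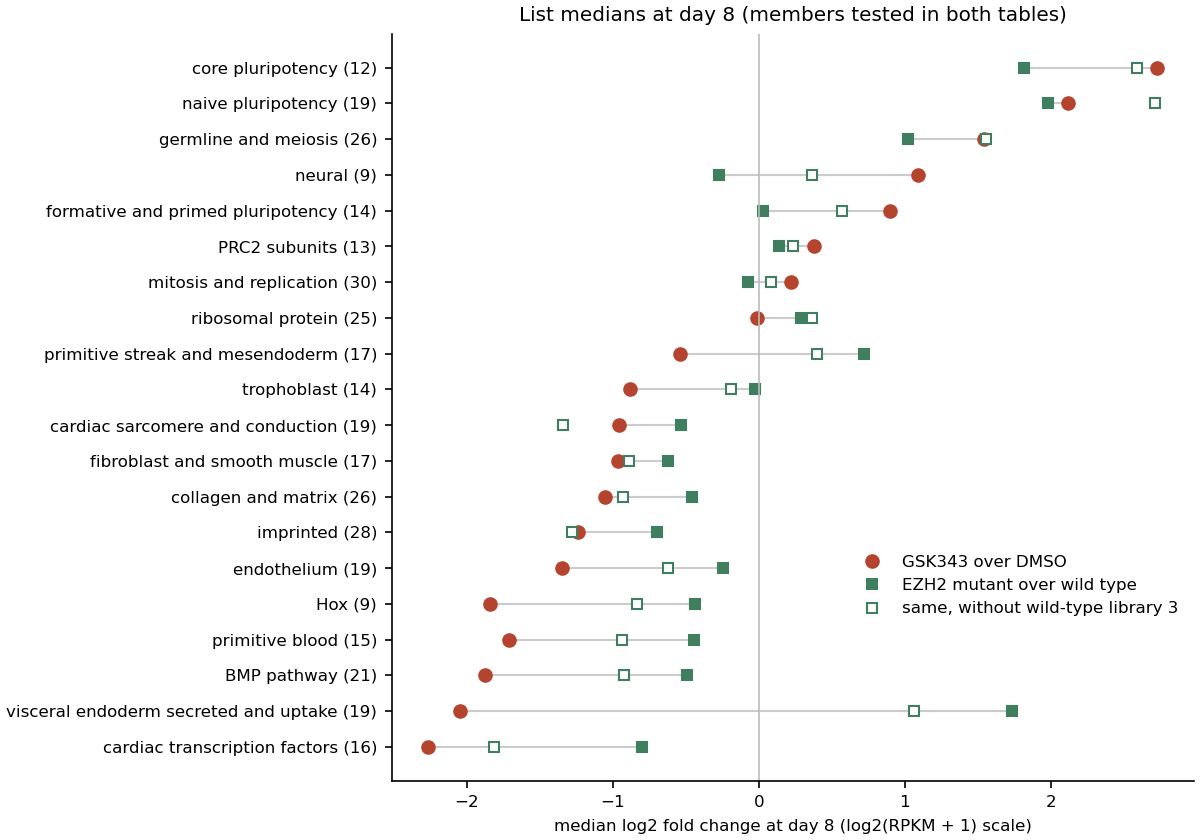
Median log2 fold change at day 8 of 20 gene lists under GSK343 over DMSO (circles) and in the EZH2 mutant over wild type with all libraries (filled squares) and without wild-type library 3 (open squares), each from its own table, with the number of members tested in both in parentheses. Visceral endoderm genes lie at -2.05 under GSK343 and at 1.74 in the mutant, while core pluripotency genes are positive in both.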

How the data were processed

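RNA-seq values were RPKM per gene and library, made by the authors and deposited as one table for GSK343 and DMSO and another for wild type and mutant. Those of the mutant table carry a further scaling per library. The submitters' processing notes name STAR 2.5.3, featureCounts 1.6.1, edgeR, HOMER 4.10.3, Bowtie2 2.3.4.3 and the mm10 build, without roles. No source used here names the annotation, the filters or whether strand was used. PRC2 target calls and peak positions were used as deposited. Genes with at least 0.5 RPKM in 2 or more libraries (3 or more in the mutant table) were kept, 14016 of 14607 and 14180 of 14772. A gene expressed in 1 group alone could pass this filter through that group, and fits without a library used the same filter. The log2(RPKM + 1) values of all 12 libraries were fitted as 6 groups with limma 3.58.1 in R 4.3.3 (eBayes with trend), with Benjamini-Hochberg adjustment over all genes kept, and stage effects were compared as interactions. The fit was also run on simulated reads with a fixed spread and no effect shared by same-numbered libraries, so that run does not measure power in these data. Reads were recovered from RPKM and gene length within 0.02 of a whole read and used for depth and for voom. H3K27me3 classes use RefSeq gene spans (GRCm38.p6, the coordinates of mm10), where starts had been planned, because start windows covered 11078 of the genes tested. Members and lists were chosen with earlier results of these data known. Genes named are the 10 largest rises and falls, the smallest p-values of each list and a fixed set, besides list members that did not pass. Members that passed against the direction of their list are named for some lists only. Rankings by size left out predicted, RIKEN, histone and ribosomal RNA genes. They also left out genes that did not pass, that had under 1 RPKM in the higher group mean, or whose day 8 groups overlapped. Tdgf1, Fgf5, Ddx4, Dazl, Mael, Nodal, Foxh1, Apob, Trf, Tbx20, Isl1, Krt8, Bmp2, Bmp4, Spry4, H19 and Igf2 were added after their values had been seen. Alternatives were another pseudocount, other filters, equal medians, voom, fewer libraries and a replicate block.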

Additional observations from a re-analysis of the deposited data

Results flagged for a closer look

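The effect of GSK343 differed between stages by the interaction test in limma for 1709 genes between day 8 and day 4 and for 2794 genes between day 8 and ES cells. Among the genes ranked, the 5 largest differences between day 8 and day 4 in the positive direction were those of Platr10 (4.64), Lefty1 (4.07), L1td1 (4.02), Pdzd4 (3.91) and Utf1 (3.89), on the log2(RPKM + 1) scale. In the negative direction they were those of Hbb-bh1 (-8.48), Nrp1 (-6.09), Hand2 (-5.51), Hand1 (-5.40) and Hba-x (-5.28).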

How the results depend on the processing

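Counts of genes past the threshold at day 8 kept within 1.5 times of 2193 higher and 2241 lower under another pseudocount, other filters, equal library medians and voom on recovered reads. Fitting only the 4 day 8 libraries gave 1354 higher and 1350 lower. With each of 5 libraries left out in turn, the counts ran from 1331 to 2167 higher and from 1401 to 2199 lower, the interaction between day 8 and day 4 from 1076 to 1914 and that between day 8 and ES cells from 1768 to 2945, with the lowest of each without DMSO day 8 library 2. With a replicate block the counts were 3366 higher and 3387 lower, 3809 for day 8 against day 4 and 5196 for day 8 against ES cells. Under the block 5 named genes gained a call, T (adjusted p = 0.000148), Suz12 (0.00329), Eed (0.00923), Kmt2c (0.00443) and Rpl27 (0.0105, in limma). The deviations of same-numbered libraries correlated at 0.67 in ES cells, 0.63 at day 4 and 0.42 at day 8, and the labels do not say that a number marks a shared culture. Without GSK343 library 1, with a pseudocount of 0.1 RPKM and with voom the naive list had a higher median than the core list, and with voom Hox genes had the lowest. List medians kept their sign with a pseudocount of 0.1 RPKM and with voom, and those of weakly expressed lists were larger by construction, -3.22 and -4.54 for Hox genes and -4.06 and -4.47 for cardiac transcription factors. Of 149 named genes, 0 had a call in the opposite direction under these alternatives, and 16 lost their call when only the day 8 libraries were fitted. Each day 8 group has 2 libraries of 16.4 to 22.0 M reads, and the smallest change that this could detect was not measured. The libraries left out in turn were the 4 of day 8 and GSK343 ES cell library 2, which had 5.0 M reads.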

Other observations

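Among 36 genes of microRNA precursors that were tested, 4 were higher under GSK343 (11.1%) and 1 was lower (2.78%), smaller shares than the 15.6% and 16% of all genes, and the 4 were picked after their values had been seen. The values are reads over the precursor's gene in RNA-seq and do not measure the mature microRNA. Mature sequences from RefSeq (GRCm38.p6) are shown because the seed, bases 2 to 8 and here in capitals, is what pairs with target transcripts.
miR-290a-3p: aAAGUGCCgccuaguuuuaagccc
miR-18b-5p: uAAGGUGCaucuagugcuguuag
miR-92a-3p: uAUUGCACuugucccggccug
miR-363-3p: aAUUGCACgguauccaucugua
The last 2 share the seed AUUGCAC. Mir290a, on the plus strand of chromosome 7 and part of a cluster that is abundant in ES cells, had 56 and 57 reads in GSK343 libraries 1 and 2, against 6 and 1 reads in DMSO libraries 1 and 2 (log2 fold change 3.52, SE 0.58, adjusted p = 0.00124). The other genes lie on the minus strand of chromosome X, in the cluster from miR-106a to miR-363. Mir18b had 48 and 34 reads under GSK343, against 5 and 8 reads under DMSO (2.19, SE 0.22, adjusted p = 5.54e-05). At day 4 the difference of Mir18b was negative (-1.37, adjusted p = 0.0267). Mir92-2 had 32 and 16 reads, against 6 and 4 reads, and Mir363 had 60 and 17 reads, against 10 and 7 reads, so that for both genes each GSK343 library exceeded each DMSO library on few reads.

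Of 490 genes tested on chromosome X, 13.5% were higher and 23.7% lower under GSK343 (median -0.17), against 15.6% and 16% of all genes. The chromosome was chosen after the values of all chromosomes had been seen, and the difference was not tested.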
